A study of Rattus norvegicus with 8 samples.

Results

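The genes described here carry glucose into the muscle fibre, store it as glycogen, break it down to pyruvate and lactate, and move lactate across the membrane. They were taken as a list of 34 genes, each represented by the probe set with the highest mean level among those with that single gene symbol. Of the 34, 33 had such a probe set, and 32 of the 14218 genes with a symbol entered the test among 10201 that lay above a filter on low values, at an intensity of about 22.4. Pkm, pyruvate kinase, had no probe set with its symbol alone and was not analysed here, and Pfkl, the liver type of phosphofructokinase, lay under the filter. RNA came from the tibialis anterior, a shin muscle made mostly of fast fibres, of 8 adult Sprague-Dawley rats, 1 rat per Affymetrix array, 3 males and 1 female in each group. The 4 hyperthyroid rats (replicates 1, 2, 3 and 5) had been injected with T3 (triiodothyronine, the active form of thyroid hormone) into the peritoneum every 2 days over 6 weeks, 25 µg for each 100 g of weight, and were killed 24 hours after the final injection. The 4 controls (replicates 7, 8, 9 and 11) were untreated, with no injection mentioned for them in the labels, which also do not say which arrays are from females. The comparison asks how a limb muscle's transcripts stand after long exposure to excess hormone. Values on every array are given in the order of the replicate numbers above.

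In muscle, glucose enters through transporters, is trapped by hexokinase and is either stored as glycogen or split by the glycolytic enzymes, which yield ATP without oxygen. Fast fibres hold most of these enzymes and much glycogen, and export lactate, whereas slow fibres take lactate up and oxidise it. Thyroid hormone is known to raise glucose turnover in muscle and to shift fibres towards faster types.

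Differences are given as hyperthyroid minus control on the scale of log2(intensity + 3.41), with standard errors from limma. None of the 32 measured genes passed an adjusted p of 0.05 over all genes (limma with Benjamini-Hochberg adjustment), where 0.0686% of the genes tested did. The smallest adjusted p of the list was 0.135, that of the aldolase Aldoa. Before adjustment, 9 of the 32 had a limma p under 0.05, against 10.6% of all genes tested. Of these, 6 were lower in the hyperthyroid group, where the share of all genes was 5.22%, and 3 were higher, where it was 5.38%. The 6 lower ones were Aldoa, Tpi1, Gapdh, Eno3 and Pgam2, enzymes of the glycolytic chain with very bright probe sets, and Ldhb, the subunit of lactate dehydrogenase typical of the heart. The 3 higher ones were Slc16a3, a lactate exporter, Gys1, muscle glycogen synthase, and Phka1, the muscle regulatory subunit of phosphorylase kinase. The count of 9 was 5 without hyperthyroid replicate 3 and 3 without control replicate 11. The 3 higher genes were 1 without hyperthyroid replicate 2 or 3 and 0 without control replicate 11, and the 6 lower ones were 3 without hyperthyroid replicate 5 or control replicate 11. The median log2 difference of the 32 genes was 0.028, against -0.00052 over all genes tested, with 17 genes above 0 and 15 below. It had no settled sign: it was -0.045 without hyperthyroid replicate 1, -0.0046 without control replicate 7, -0.020 without control replicate 11 and 0.14 after quantile normalization, where that of all genes was 0.023.

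**Figure D1:**
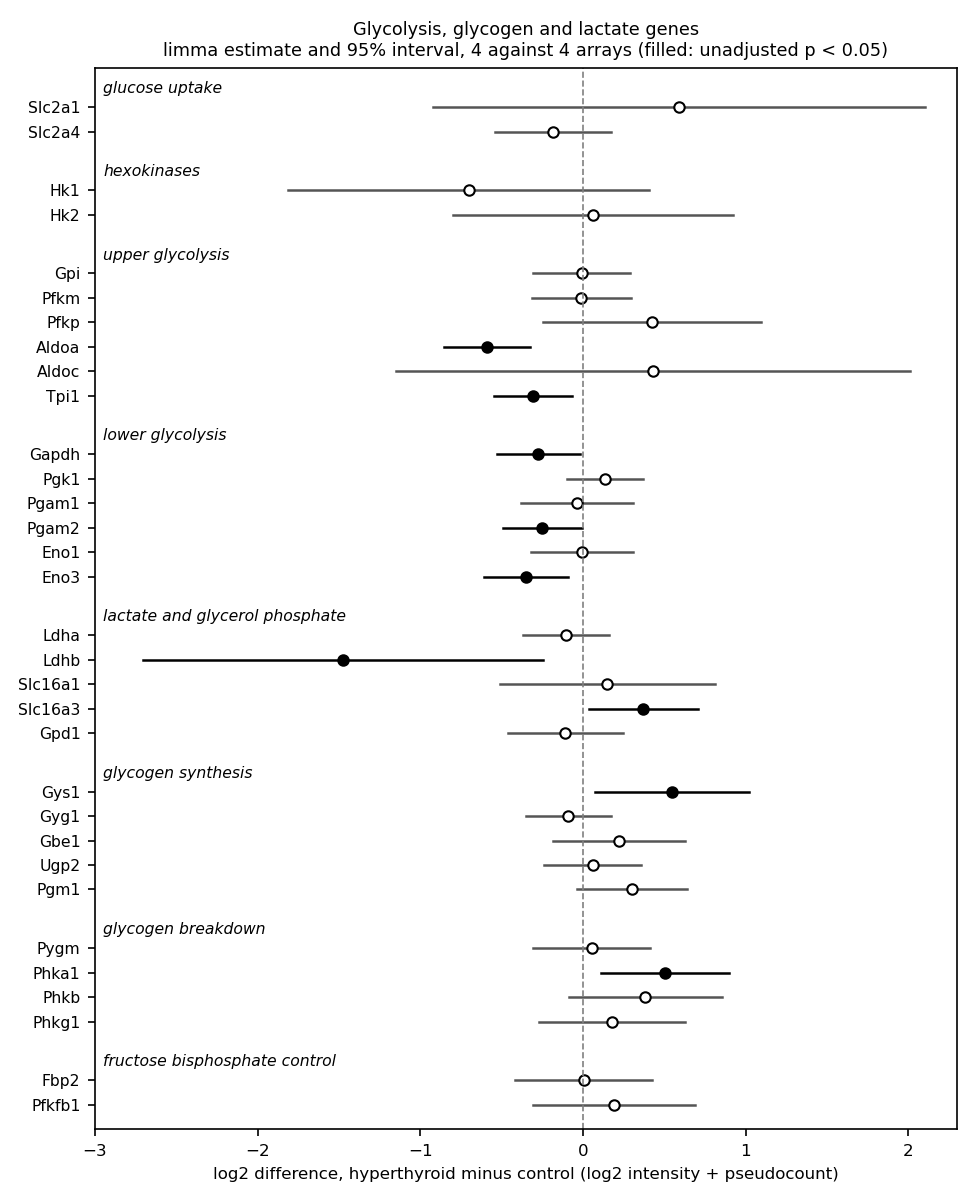
Estimated log2 difference between the hyperthyroid and control groups (x axis) for each of the 32 genes that passed the filter, by role, with 95% intervals from limma on 4 against 4 arrays. Filled points had an unadjusted p under 0.05, 6 to the left of 0 and 3 to the right.

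The arrays differed in ways that touch these genes. Each array had a mean of 150.1 after its highest and lowest 2% were left out, yet the share of signal in the 100 brightest probe sets was 22.6 ± 1.18% in the hyperthyroid group and 26.6 ± 0.880% in the controls (SD, n = 4 each). Its two-sided p by exact permutation was 0.0286, the smallest possible with 4 against 4 arrays. Array medians ran from 38.7 to 41.9 in the hyperthyroid group and from 43.4 to 54.8 in the controls (p = 0.0286 by exact permutation). The signal of the 3' minus the 5' control probe set of Gapdh averaged 0.34 ± 0.053 for hyperthyroid and 0.48 ± 0.058 for control muscle on the log2 scale (SD, n = 4 each; p = 0.0286 by exact permutation), while that of beta-actin averaged 0.72 ± 0.17 and 0.87 ± 0.23 (p = 0.4 by exact permutation). Markers of fast fibres were bright in every rat: the 11 measured summed to 265388 to 346856 in the hyperthyroid group and to 343094 to 387801 in the controls, and 9 of the 11 differences were below 0. Slow-fibre markers were unevenly spread: all 11 were below 0 (median log2 difference -2.71), with sums of 50490 and 33589 on control replicates 7 and 11 and of 1654 to 10193 on the other 6 arrays. Schwann cell markers, in 5 genes, summed to 3185 and 2157 on those same control arrays and to 393 to 1126 elsewhere, and smooth muscle markers, in 5 genes, to 1503 and 1251 against 776 to 915. The Schwann sums were mostly Pmp22, with 2537 and 1916 on those arrays. Mbp, S100b and Prx were highest on control replicate 7 but read only 113, 69.0 and 53.6 on control replicate 11. They reached 165 on hyperthyroid replicate 1, 129 on hyperthyroid replicate 5 and 67.9 on control replicate 8, respectively. Sox10 lay under the filter. Sums for 4 endothelial genes lay at 614 to 1055 on hyperthyroid and 736 to 924 on control arrays, for 5 adipocyte genes at 1274 to 2665 and 1211 to 2511, and for 3 erythroid genes at 4327 to 7900 and 4199 to 12891. The adipocyte sums were mostly Fabp4, with 1096 to 2502 and 1092 to 2127. Of the 4 adipocyte genes tested, 3 were above 0 and 1, Fabp4, below, with a median log2 difference of 0.81 and none with an unadjusted p under 0.05. Sums for 5 macrophage genes lay at 212 to 495 and 215 to 528 and for 5 fibroblast genes at 3887 to 20344 and 2216 to 18094, and no gene of these marker lists passed over all genes or was listed at 0. RNA of a whole muscle cannot tell fewer fibres of a type from less RNA in each.

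No gene of glucose uptake and trapping had an unadjusted p under 0.05, and the groups overlapped for all 4. Slc2a4 (GLUT4), the insulin-responsive transporter of muscle, had intensities of 2591, 1939, 1890 and 1568 in the hyperthyroid rats and of 2725, 2106, 1897 and 2282 in the controls. The log2 difference was -0.18, with a 95% interval of -0.54 to 0.17. Its second probe set gave 0.012. Slc2a1 (GLUT1), the transporter of basal uptake in most tissues, was dim and scattered, with 46.2 to 92.2 in hyperthyroid and 4.92 to 154 in control muscle. Hk2, the main hexokinase of muscle, averaged 96.0 ± 54.6 against 80.6 ± 12.4 (SD, n = 4 each), with 165 on hyperthyroid replicate 1 and 34.7 on replicate 5. Hk1, the form of brain and many other tissues, had 29.5 ± 9.42 against 54.8 ± 29.3, close to the lowest level tested, which was an intensity of about 22.4. The intervals of the 2 hexokinases, -0.80 to 0.92 and -1.81 to 0.41 on the log2 scale, are too wide to speak for or against a moderate difference.

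In upper glycolysis, Aldoa, the muscle aldolase that splits fructose bisphosphate, stood furthest apart. Its intensity was 35377, 42792, 38310 and 36747 in the hyperthyroid rats and 52688, 54767, 58377 and 65134 in the controls. Every hyperthyroid array lay below every control array. The controls were 1.51-fold higher, a log2 difference of -0.59 ± 0.12 (SE), with a 95% interval of -0.85 to -0.33 and a limma adjusted p of 0.135. Tpi1, triosephosphate isomerase, which interconverts the 2 products of aldolase, had 20769, 24564, 21322 and 22200 against 25645, 29273, 27594 and 27340. These groups did not overlap either, and the log2 difference was -0.31 ± 0.11 (limma adjusted p = 0.363). In all, 3 of the 32 genes had groups that did not overlap, against 6.55% of all genes tested. All 3, Pgam2 being the other, were lower in hyperthyroid muscle, where the share of all genes was 3.21%, and none was higher, where it was 3.34%. All 3 have a mean log2 level of 13 or more, where 104 of 126 genes had a difference below 0. The share of genes whose groups did not overlap was not counted at that level.

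The stretches from 250 bases before to 50 after the annotated gene starts of Aldoa, Tpi1 and Pgam2 are shown because these are the 3 genes whose groups did not overlap, and to let the letters AGGTCA, the half-site that nuclear hormone receptors bind, and ACGTG, the core bound by hypoxia-inducible factor, be seen. They come from RefSeq (build GRCr8), in lower case with matches to either motif on either strand in capitals. Aldoa lies at chr1:190836728-190837027, Tpi1 at chr4:159305039-159305338 and Pgam2 at chr14:84897825-84898124, all on the minus strand.
Aldoa: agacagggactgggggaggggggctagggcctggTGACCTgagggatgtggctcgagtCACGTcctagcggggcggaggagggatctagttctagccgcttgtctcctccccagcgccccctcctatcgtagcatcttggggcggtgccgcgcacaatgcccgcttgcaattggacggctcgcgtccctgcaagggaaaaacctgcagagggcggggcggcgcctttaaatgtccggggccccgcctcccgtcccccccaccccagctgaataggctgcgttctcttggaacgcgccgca
Tpi1: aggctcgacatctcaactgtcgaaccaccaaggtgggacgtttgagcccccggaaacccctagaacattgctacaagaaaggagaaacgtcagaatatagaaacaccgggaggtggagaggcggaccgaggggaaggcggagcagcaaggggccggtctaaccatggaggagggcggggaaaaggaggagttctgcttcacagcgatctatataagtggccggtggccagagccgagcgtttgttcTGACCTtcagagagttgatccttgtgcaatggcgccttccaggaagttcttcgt
Pgam2: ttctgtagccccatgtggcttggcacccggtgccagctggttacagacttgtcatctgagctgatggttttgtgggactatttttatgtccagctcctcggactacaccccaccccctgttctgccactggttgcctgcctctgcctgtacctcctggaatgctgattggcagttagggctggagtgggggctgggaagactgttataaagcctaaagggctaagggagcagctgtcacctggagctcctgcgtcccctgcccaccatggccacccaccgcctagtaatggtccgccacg
Aldoa held 1 match to each motif, Tpi1 held 1 to AGGTCA and none to ACGTG, and Pgam2 held none to either. RefSeq windows were found for 29 of the 33 genes. AGGTCA was present in 3 of the 29, those of Aldoa, Tpi1 and Ldhb, and in 16.2% of all 33469 windows of this length. ACGTG was present in 16 of the 29 and in 19.3% of all windows. These shares are not matched for the content of G and C, which was 50.3% to 72.7% in the 29 windows. That content was not measured over all windows. The E-box letters CANNTG, which can hold ACGTG within them, were in 18 of the 29 and in 72.1% of all, and TATAAA in 5 of the 29 and in 14.2%. A match describes the letters of 1 annotated start, which may not be the start used in muscle.

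For the other enzymes of upper glycolysis the groups overlapped. Gpi, which turns glucose 6-phosphate into fructose 6-phosphate, averaged 7972 ± 655 against 8089 ± 1432 (SD, n = 4 each), a log2 difference of -0.0080 with an interval of -0.31 to 0.29. Pfkm, the muscle phosphofructokinase and the committed step of the pathway, averaged 14426 ± 1141 against 14653 ± 2518, with a difference of -0.0089. Its 2 other probe sets gave 0.25 and 1.10, the last at intensities of 11.6 to 103. Pfkp, the platelet type, had 81.3 ± 17.3 against 59.9 ± 13.6, Aldoc, the brain aldolase, 39.4 ± 23.4 against 28.3 ± 20.6, and Pfkl, under the filter, 29.2 ± 21.1 against 23.2 ± 19.2. These 3 low forms are measured too loosely for a statement on direction.

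In lower glycolysis, 5 of 6 genes had estimates below 0, and Gapdh, Eno3 and Pgam2 had an unadjusted p under 0.05. Gapdh, which makes the first high-energy phosphate of the chain, was measured only by the array's own control probe sets. Its 3' set read 32358, 38319, 32598 and 34106 in the hyperthyroid rats against 37227, 43279, 44068 and 41494 in the controls, and control replicate 7 lay below hyperthyroid replicate 2. The log2 difference was -0.27 ± 0.12 (limma adjusted p = 0.441), and along the transcript it was -0.44 for the middle and -0.13 for the 5' set. The 3' minus 5' signal given above comes from these same probe sets, so it restates the gap between the 3' and the 5' difference. The cause of that gap was not tested.

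Eno3, the muscle enolase, read 28219, 35417, 29032 and 29761 in the hyperthyroid rats against 35307, 41262, 39935 and 39017 in the controls. Hyperthyroid replicate 2 and control replicate 7 crossed, and the log2 difference was -0.35 ± 0.12 (limma adjusted p = 0.335). Pgam2, the muscle phosphoglycerate mutase, read 18889, 18839, 18567 and 19374 against 19650, 23698, 24249 and 22609. The groups were apart, narrowly between hyperthyroid replicate 5 and control replicate 7, with a log2 difference of -0.25 ± 0.11 (limma adjusted p = 0.455).

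The forms of these steps found in most tissues sat near 0. Eno1 averaged 988 ± 172 against 983 ± 52.8 (SD, n = 4 each) and Pgam1 850 ± 154 against 868 ± 123, with log2 intervals of -0.32 to 0.31 and -0.38 to 0.31. Pgk1, which makes ATP from bisphosphoglycerate, had the opposite sign to its neighbours in the chain, with 15030 ± 739 against 13705 ± 964 and a log2 difference of 0.13 ± 0.11. Its second bright probe set gave 0.029, and another, at intensities of 5.46 to 82.9, gave -1.02.

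**Figure D2:**
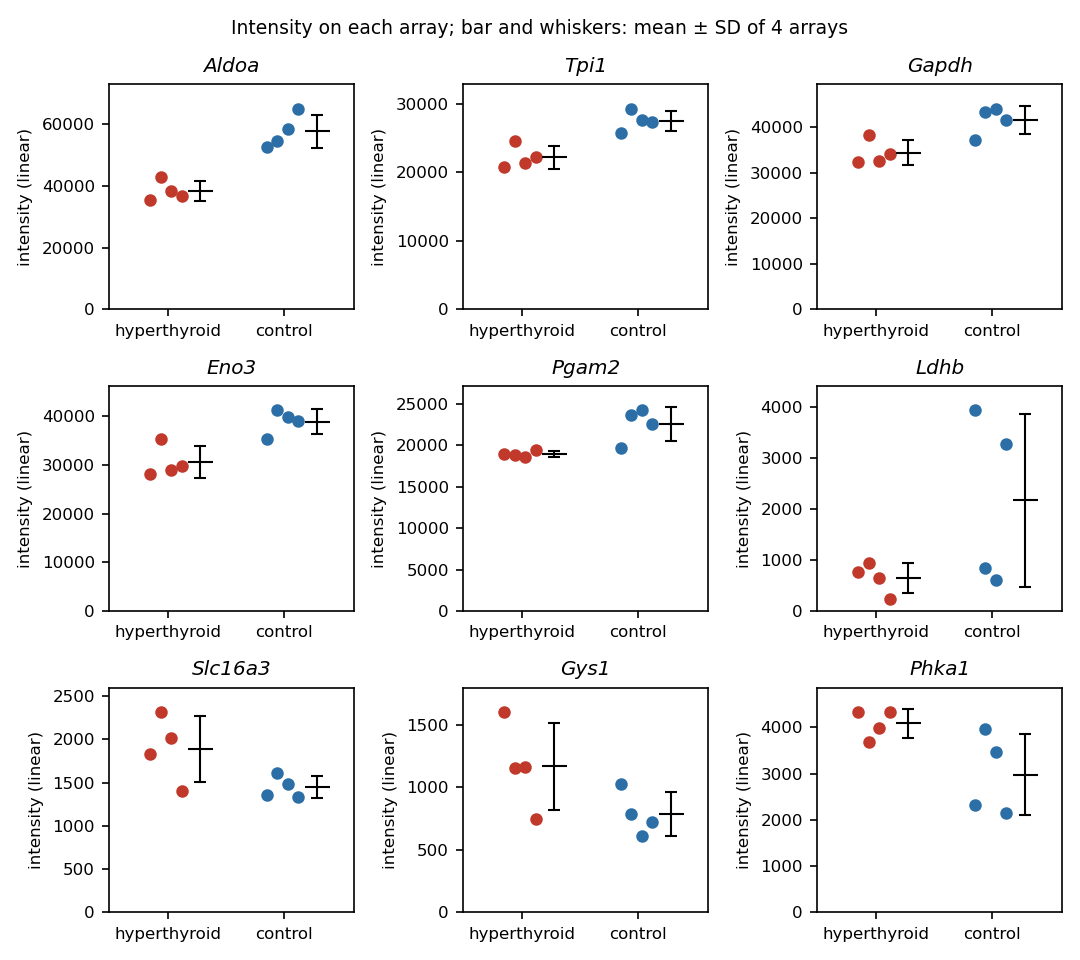
Intensity on a linear scale (y axis) on each array for the 9 genes with an unadjusted p under 0.05, hyperthyroid in red and control in blue, with the mean and SD of 4 arrays beside each group. Aldoa, Tpi1 and Pgam2 show no overlap between the groups, while Ldhb has 2 control arrays at 3942 and 3286 and the others among the hyperthyroid ones.

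Bright probe sets of other genes read lower too. Of the 126 genes whose mean log2 level was 13 or more, an intensity of about 8189, 104 had a difference below 0. The 10 glycolytic and glycogen genes of that level had a median of -0.18, with 7 below 0, and the 116 other genes had a median of -0.23, with 97 below 0. Counted from the lowest, Aldoa was 7th of the 126, Eno3 42nd, Tpi1 49th, Gapdh 53rd and Pgam2 58th, whereas Ldha was 88th and Pfkm 103rd. At levels of 11 to 13 the genes of the list had a median of 0.19 (9 genes) against -0.018 for 415 others, at 8 to 11 of 0.077 (8 genes) against 0.038 for 2996 others, and under 8 of 0.43 (5 genes) against -0.023 for 6642 others. An unadjusted p under 0.05 was reached by 5 of the 10 glycolytic and glycogen genes at a level of 13 or more, which is 50%, and by 40.5% of the 116 others. The shares were 11.1% against 19.5% at 11 to 13, 37.5% against 14.8% at 8 to 11, where the list has 8 genes, and 0 of 5 against 7.54% under 8.

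**Figure D3:**
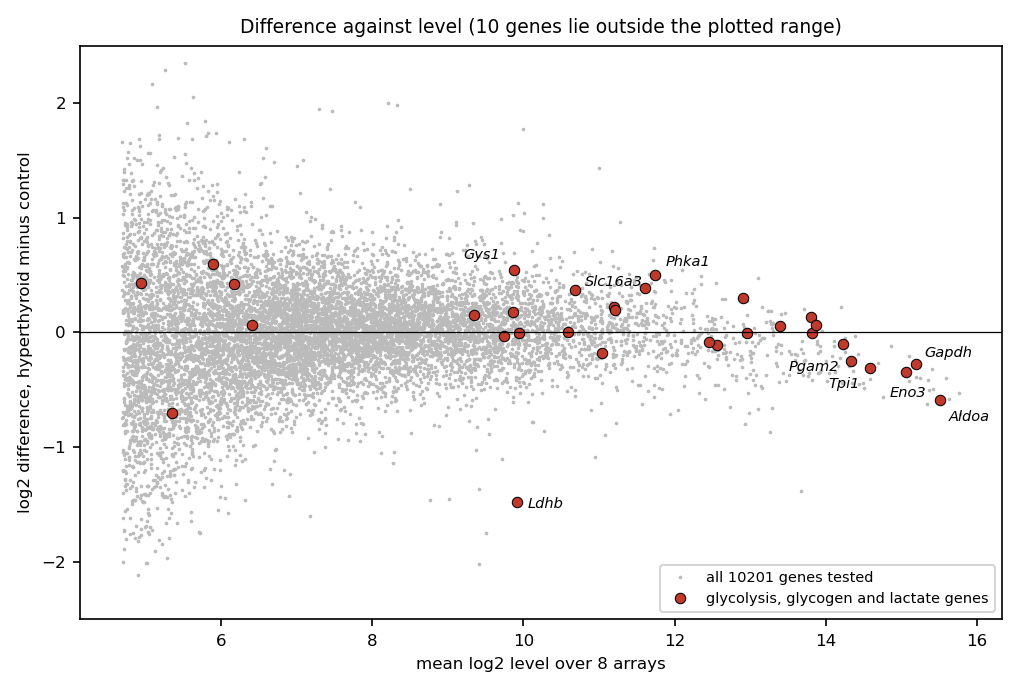
Log2 difference between groups (y axis) against mean log2 level over 8 arrays (x axis) for all 10201 genes tested in grey and the 32 glycolysis, glycogen and lactate genes in red. The grey cloud bends below 0 at the highest levels, where Aldoa, Eno3, Gapdh, Tpi1 and Pgam2 lie.

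The sign of 4 of these 5 bright enzymes changed under at least 1 other scaling of the arrays. Aldoa stayed below 0 with -0.075 ± 0.081 (SE) after quantile normalization, -0.37 after centring on array medians and -0.27 after centring on 18 hybridization control probe sets. Its unadjusted limma p was 0.372, 0.0132 and 0.0729 with these scalings, so after quantile normalization it could not be told from 0. Gapdh turned to 0.14 after quantile normalization and 0.046 with the hybridization controls, Eno3 to 0.015 after quantile normalization, and Tpi1 and Pgam2 to 0.012 and 0.071 with the hybridization controls. The last 2 centrings moved the median of all genes to 0.22 and 0.32. The place of these 5 genes relative to all genes could not change under them, because every gene is moved by about the same amount. With quantile normalization 5 genes of the list were higher and 1 lower at an unadjusted p under 0.05, with array medians 6 and 2, and with hybridization controls 8 and 1, in place of 3 and 6. The share of all genes under that limit was 10.1%, 15.2% and 20.4% with these scalings, and the last 2 add about the same amount to every gene.

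**Figure D4:**
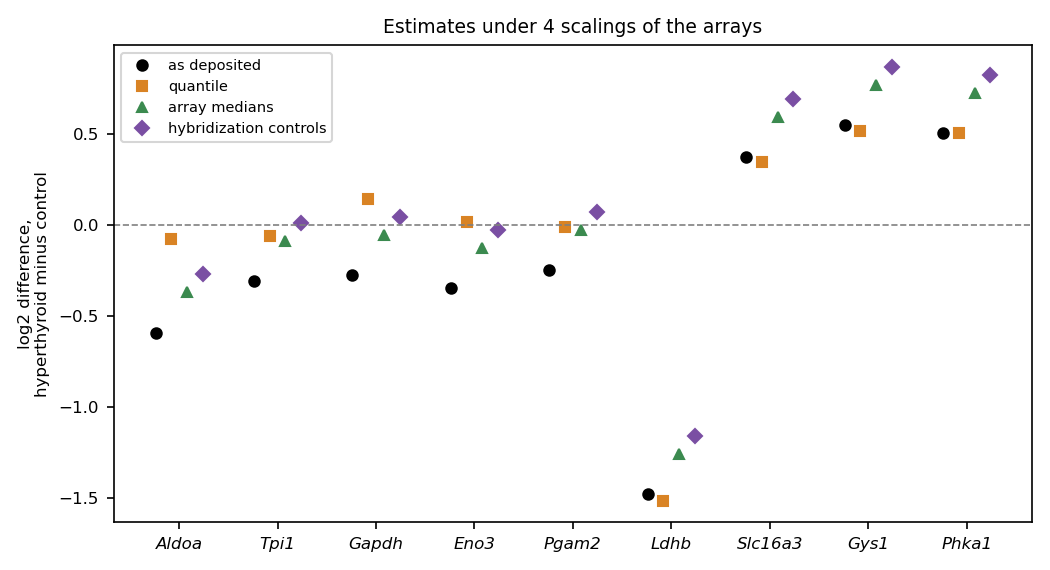
Log2 difference (y axis) of the 9 genes with an unadjusted p under 0.05 under 4 scalings of the arrays. The 5 bright glycolytic enzymes move towards 0 or across it under the other scalings, while Ldhb stays below -1.1 and Slc16a3, Gys1 and Phka1 stay above 0.3 in all 4. Array medians and hybridization controls add about the same amount to every gene, so the direction of those shifts follows from their construction.

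At the lactate step, Ldhb had the largest estimate of the whole list, and it rested on 2 control arrays. Ldha, the subunit of fast muscle, had 18604, 19295, 17010 and 19713 in the hyperthyroid rats against 17446, 21956, 22473 and 18581 in the controls, a log2 difference of -0.10 with an interval of -0.37 to 0.16. Ldhb, the subunit that favours lactate oxidation, had 772, 932, 655 and 230 against 3942, 849, 600 and 3286. Control replicates 7 and 11 were high and control replicates 8 and 9 lay among the hyperthyroid arrays. The controls averaged 2169 ± 1693 against 647 ± 301 (SD, n = 4 each), a log2 difference of -1.48 ± 0.57 (limma adjusted p = 0.398). Without control replicates 7 and 11, the arrays with the high slow-fibre sums, it was -0.31, and with 1 array left out it ran from -1.95 to -1.04.

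The arrays with the highest Ldhb were also those with the highest slow-fibre sums. Myh7, the slow myosin heavy chain, read 5570 and 2692 on control replicates 7 and 11, 56.0 and 163 on control replicates 8 and 9, and 5.83 to 169 on the hyperthyroid arrays. Without both of those control arrays, 9 genes of the list had an unadjusted p under 0.05, against 9.50% of all genes. They were not the same 9, as Ldhb, Slc16a3 and Phka1 were not among them and other genes had entered. The part of the slow-fibre content in the Ldhb value was not tested. The difference between the 2 subunits, Ldha minus Ldhb, was 1.37 higher in hyperthyroid muscle on the log2 scale (exact permutation p = 0.257, two-sided, adjusted p = 0.5 over 7 pairs). Without control replicates 7 and 11 together, it was only 0.057 higher.

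The promoter windows of this pair are shown because the 2 subunits are known for different tissues. Ldha lies at chr1:106507842-106508141 on the plus strand and Ldhb at chr4:177177359-177177658 on the minus strand (RefSeq, GRCr8), with matches to ACGTG and AGGTCA on either strand in capitals.
Ldha: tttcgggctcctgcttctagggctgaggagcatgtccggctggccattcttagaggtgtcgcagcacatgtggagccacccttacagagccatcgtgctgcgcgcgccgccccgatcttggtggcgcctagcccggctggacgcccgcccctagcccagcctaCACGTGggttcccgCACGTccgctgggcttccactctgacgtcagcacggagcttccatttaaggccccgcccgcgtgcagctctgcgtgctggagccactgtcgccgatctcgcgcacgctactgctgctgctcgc
Ldhb: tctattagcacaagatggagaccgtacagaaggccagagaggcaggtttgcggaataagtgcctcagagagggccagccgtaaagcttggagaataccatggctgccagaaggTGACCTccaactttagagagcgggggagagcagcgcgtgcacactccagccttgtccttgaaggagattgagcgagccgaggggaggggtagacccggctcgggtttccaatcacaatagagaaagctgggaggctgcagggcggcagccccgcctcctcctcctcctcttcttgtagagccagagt
Ldha held 3 matches to ACGTG, 2 of which are both strands of the same palindrome, and none to AGGTCA. Ldhb held 1 match to AGGTCA and none to ACGTG.

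Slc16a3 (MCT4), the lactate exporter of fast fibres, had 1832, 2322, 2014 and 1410 in the hyperthyroid rats against 1360, 1610, 1483 and 1330 in the controls. Hyperthyroid replicates 1, 2 and 3 lay above all controls, and replicate 5 lay among them. The log2 difference was 0.37 ± 0.15 (limma adjusted p = 0.439), and it lay at 0.27 to 0.69 under all 18 alternatives. Slc16a1 (MCT1), which serves lactate uptake in oxidative fibres, averaged 730 ± 289 against 639 ± 218 (SD, n = 4 each), with an interval of -0.51 to 0.81. Gpd1, which carries cytosolic electrons to glycerol 3-phosphate, averaged 5863 ± 693 against 6420 ± 1483, a difference of -0.11. Its second probe set gave 0.38.

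The remaining pairs of a muscle form and another form of the same step passed no test either. The group difference of muscle form minus other form was -0.78 for Slc2a4 and Slc2a1, 0.76 for Hk2 and Hk1, -1.02 for Aldoa and Aldoc, -0.21 for Pgam2 and Pgam1, -0.34 for Eno3 and Eno1 and 0.22 for Slc16a3 and Slc16a1. Exact permutation p-values of these 6 pairs ran from 0.171 to 0.629 (two-sided), and adjusted over the 7 pairs tested from 0.5 to 0.629.

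Of the genes that build glycogen, Gys1, the muscle synthase that lengthens the chain, had the largest difference. It read 1605, 1154, 1162 and 748 in the hyperthyroid rats against 1023, 785, 607 and 724 in the controls. Hyperthyroid replicate 5 lay within the controls and the other hyperthyroid arrays above them. The log2 difference was 0.55 ± 0.22, which is 1.46-fold when taken back from the log2 scale (limma adjusted p = 0.42). It ran from 0.38 without hyperthyroid replicate 1 to 0.74 without hyperthyroid replicate 5. Gbe1, the branching enzyme, averaged 2573 ± 442 against 2237 ± 629 (SD, n = 4 each), Ugp2, which makes UDP-glucose, 15326 ± 1735 against 14769 ± 2279, and Gyg1, the glycogenin that primes the particle, 5496 ± 661 against 5824 ± 422. The log2 differences of these 3 were 0.22, 0.059 and -0.089, each with an interval that holds 0.

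Pgm1, phosphoglucomutase, which links glycogen to glycolysis in both directions, read 8461, 8807, 8179 and 8490 in the hyperthyroid rats against 5823, 7924, 9003 and 5414 in the controls. The hyperthyroid arrays were close together, and control replicates 7 and 11 were low. Its log2 difference was 0.30 ± 0.16 and its second probe set gave 0.22, and without both of those control arrays it was 0.0059.

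The phosphorylase kinase subunits, which switch on glycogen breakdown, had estimates above 0. Phka1, the muscle alpha subunit, read 4339, 3693, 3986 and 4337 in the hyperthyroid rats against 2329, 3955, 3465 and 2148 in the controls. Control replicates 7 and 11 were again the low ones, and control replicate 8 lay above hyperthyroid replicate 2. The log2 difference was 0.50 ± 0.18 (limma adjusted p = 0.362), 0.45 for the second probe set, and 0.14 without control replicates 7 and 11. Phkb, the beta subunit, read 3471, 3534, 3045 and 4307 against 2799, 3637, 3358 and 1621, a log2 difference of 0.38 ± 0.22 that was 0.027 without those 2 arrays. Phkg1, the catalytic subunit of muscle, averaged 1013 ± 262 against 893 ± 237 (SD, n = 4 each).

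Pygm, the muscle phosphorylase on which this kinase acts, was close to equal in the groups. It read 8653, 11517, 11501 and 12810 in the hyperthyroid rats against 9338, 11845, 13436 and 8531 in the controls, a log2 difference of 0.053 with an interval of -0.31 to 0.41. Its 3 probe sets gave 0.048 to 0.053, and in each of them control replicates 7 and 11 were the lowest controls and control replicate 9 the highest. Of the enzymes that set fructose 2,6-bisphosphate or reverse the pathway, Fbp2, the muscle fructose bisphosphatase, differed by 0.0041 and Pfkfb1, the liver and muscle bifunctional enzyme, by 0.19, with 3841 on hyperthyroid replicate 1 and 1480 on replicate 5.

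**Figure D5:**
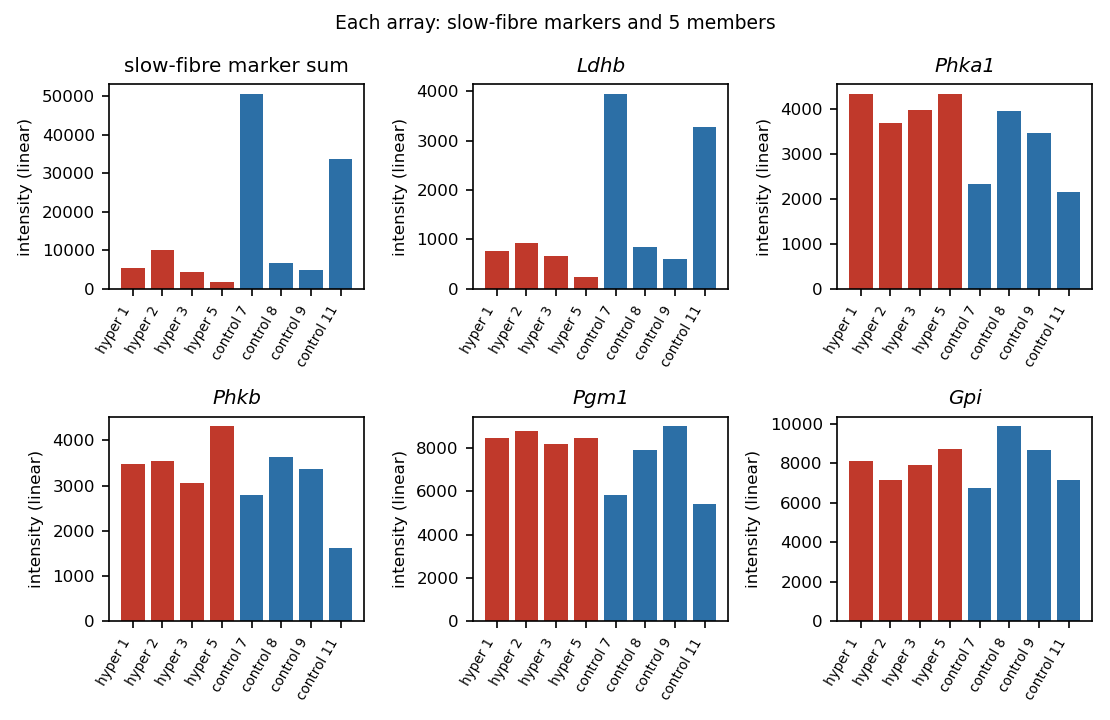
Intensity on a linear scale (y axis) on each of the 8 arrays for the summed slow-fibre markers and for Ldhb, Phka1, Phkb, Pgm1 and Gpi, hyperthyroid in red and control in blue. Control replicates 7 and 11 are the highest in the slow-fibre sum and Ldhb and the lowest controls in the other 4 genes. Not every gene of the list has this order, as control replicate 7 was the highest control for Gys1, Gbe1 and Slc2a4.

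Further genes of these pathways were taken from a list of 52, of which 39 had a probe set and 33 passed the filter. None passed over all genes, and 4 had an unadjusted p under 0.05 (limma), 2 of them higher and 2 lower. That is 12.1% of the 33, near the 10.6% of all genes tested, and the 4 are described for their values alone. Pfkfb3, an inducible kinase that makes the activator fructose 2,6-bisphosphate, read 99.2, 446, 403 and 578 in the hyperthyroid rats against 86.1, 150, 246 and 131 in the controls, a log2 difference of 1.14 ± 0.46 (limma adjusted p = 0.427). Hyperthyroid replicate 1 was as low as the controls. Gpd2, the mitochondrial partner of Gpd1 in the glycerophosphate shuttle, read 1660, 1225, 1307 and 1805 against 806, 1280, 1309 and 943, a difference of 0.48 ± 0.18 (limma adjusted p = 0.398).

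The 2 lower genes, Mpc1 and Mdh1, had mean log2 levels of 13.4 and 13.7. At levels of 13 or more, 104 of 126 genes had a difference below 0. These 2 genes were not examined under the other scalings. Mpc1, a subunit of the mitochondrial pyruvate carrier, read 9658, 9091, 10616 and 7673 in the hyperthyroid rats against 12627, 11819, 9552 and 16526 in the controls, a log2 difference of -0.43 ± 0.16 (limma adjusted p = 0.388), while its partner Mpc2 had -0.18. Mdh1, the cytosolic malate dehydrogenase, read 12456, 12944, 12650 and 9277 against 18065, 15380, 11076 and 17370, a difference of -0.37 ± 0.17 (limma adjusted p = 0.453). Control replicate 9 lay within the hyperthyroid arrays for both. Pfkfb3 had 3 probe sets, and Gpd2 and Mdh1 had 2 each, of which only the brightest is given here. Bsg, the chaperone of the lactate carriers, differed by 0.075, and Ppp1r3a, the muscle glycogen-targeting subunit of protein phosphatase 1, by -0.10.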

How the data were processed

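Intensities of 31099 probe sets on 8 arrays, deposited by the authors on a linear scale, were used. GCOS, the Affymetrix software, is named without a version in the submitters' processing notes. Labelled RNA was copied from cDNA primed with oligo(dT), per the labels' protocols, which favours the 3' end of transcripts. Gene symbols came from the platform annotation: 20826 probe sets carried 1, 436 several and 9780 none, beside 57 controls, and only single symbols were named. Control probe sets were left out except for Gapdh, which had no other.

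The scale was log2(intensity + 3.41), with a pseudocount at the 10th percentile, which understates differences of dim genes. The filter was the 40th percentile of mean log2 level, 4.69. Each of 10201 genes, by its brightest kept probe set, was tested with limma 3.58.1 in R 4.3.3 (variance trend, two-sided, Benjamini-Hochberg at 0.05, prior of 6.88 degrees of freedom), after checks on simulated data. Technical measures and 7 isoform pairs were tested by exact permutation of 70 assignments. Of 8 pairs listed, that of Pfkm and Pfkl was not tested, as Pfkl lay under the filter. The members, the 52 further genes and the marker lists (slow fibre, fast fibre, Schwann cell, smooth muscle, endothelium, adipocyte, erythroid, macrophage, fibroblast) were chosen with earlier results of these data known. All members were named, with values on every array for those with an unadjusted p under 0.05 or groups apart and for others where the text turns on them. Further pathway genes were named where their unadjusted p was under 0.05; Mpc2, Bsg, Ppp1r3a and the marker Myh7 were added after their values were seen. Alternatives were 3 other scalings, a pseudocount of 12.6, no filter or one at the 60th percentile, no variance trend, weights per array, gene means over their probe sets, and arrays left out.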

Additional observations from a re-analysis of the deposited data

Results flagged for a closer look

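Of 66 groups of 4 arrays examined, 1 held an array far from the others, where chance gives about 1 in 20. Eno1, the enolase of most tissues, read 1062 on control replicate 11 and 954 to 958 on the other 3 controls, a gap of 0.964 of the whole range. The 3 close arrays make that gap large in relative terms, and the hyperthyroid arrays spanned 794 to 1185.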

How the results depend on the processing

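No member passed an adjusted p of 0.05 under any of the 18 alternatives run. The count of all genes past it, 7, became 12 after centring on array medians, 114 after centring on hybridization controls, 11 with no filter, 0 with no variance trend, 1 with the mean of all probe sets and 3 without control replicates 7 and 11 together, and ran from 0 to 7 with 1 array left out. It was 4, 0, 1 and 3 without hyperthyroid replicate 2, hyperthyroid replicate 3, control replicate 7 and control replicate 9. The 9 members with an unadjusted p under 0.05 became 5 with no filter and 2 with no variance trend, and 3 to 8 with 1 array left out (5 without hyperthyroid replicate 3 and 3 without control replicate 11). The median of the 32 tested members, 0.028, became 0.14, 0.25 and 0.35 under quantile normalization, array medians and hybridization controls, -0.011 with array weights and -0.025 without control replicates 7 and 11 together, and ran from -0.045 to 0.084 with 1 array left out. Among the 9, Gapdh changed sign to 0.14 and Eno3 to 0.015 under quantile normalization, and Tpi1, Gapdh and Pgam2 to 0.012, 0.046 and 0.071 under hybridization controls, a centring that adds about the same amount to every gene and moved the median of all genes to 0.32, as array medians moved it to 0.22; Aldoa, Ldhb, Slc16a3, Gys1 and Phka1 kept theirs under all 18. The shifts under these 2 centrings follow from their construction, and the cause of the other changes was not tested. No paired analysis was possible because the groups share no replicate number. The 4 arrays of each group limit the precision, and dim genes such as Hk1, Aldoc and Slc2a1 have wide intervals.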
